A study of Mus musculus with 15 samples.

Results

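A set of 10 receptors for vasoactive hormones and mediators was chosen by gene name, of which 8 were measured among the 22180 genes of the array table: Agtr1a, Ednrb, Adra1b, Avpr1a, Tbxa2r, Ptgir, Htr2b and S1pr3. Each of the 8 was read by 1 probe set that carried its symbol alone. Ednra and Adra1d were found under no such probe set and were not analysed here. Total RNA of carotid arteries from female C57Bl/6J mice aged 21 to 22 weeks was hybridised to 15 arrays. The arteries were ligated vessels of Has3-deficient mice (n = 3, numbered 3, 5 and 6), ligated vessels of wildtype mice (n = 4), non-ligated vessels of Has3-deficient mice (n = 4) and non-ligated vessels of wildtype mice (n = 4). All were taken 5 days after the left common carotid had been tied off, a procedure that induces thickening of the inner vessel wall (neointimal hyperplasia). Has3 encodes a synthase of hyaluronan, a sugar polymer of the extracellular matrix. The labels name the Has3 allele no further, and nothing in them states that each array is its own animal. The p-values therefore cover only the spread seen among these samples, part of which may be technical.

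Vascular tone is set largely by G protein coupled receptors on smooth muscle and endothelium. Angiotensin II, endothelin, noradrenaline, vasopressin, thromboxane and serotonin act mainly through Gq, phospholipase C and calcium to contract smooth muscle. Prostacyclin acts in the opposite direction through Gs and cyclic AMP: it relaxes smooth muscle and inhibits platelets. Sphingosine 1-phosphate is a lipid of plasma and platelets whose receptors differ in coupling, and S1pr3 couples to Gi and Gq among others. Several of these receptors are also carried by macrophages, platelets, nerves or fat, which a whole artery can include.

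Values are on a log2 scale on which 0 is the median array of that probe set. Levels of different receptors could therefore not be compared, and whether a marker was present at all could not be checked. Has3 itself showed no passing fall by genotype (-0.20 ± 0.16 log2 units in ligated and 0.085 ± 0.14 in non-ligated arteries, difference ± SE), so its probe set does not check the genotypes, which follow the labels. Of 18 measured markers of contractile smooth muscle 18 were lower after ligation in Has3-deficient and 17 in wildtype arteries, and of 15 macrophage markers 13 were higher in each (limma, adjusted p under 0.05). Of 10 neutrophil markers 9 were higher in each, and 1 was lower in Has3-deficient arteries. Of all genes, 8.08% were lower and 10.2% higher in Has3-deficient arteries, and 14.6% lower and 13.2% higher in wildtype arteries. Myh11, the smooth muscle myosin heavy chain, fell by 0.87 log2 units in Has3-deficient and 1.29 in wildtype arteries, and Adgre1, a macrophage surface marker, rose by 2.53 and 2.22. In bulk tissue, fewer cells of a type and less RNA per cell cannot be told apart. Several non-ligated arrays stood apart: the mean of 13 neuron and chromaffin markers was 1.05, -0.26, 4.11 and 1.58 in the 4 Has3-deficient non-ligated arrays and -0.34, 2.23, -0.41 and -0.35 in the 4 wildtype non-ligated arrays. The mean of 14 fat markers was 1.66 in Has3-deficient non-ligated array 4 and 1.58 in wildtype non-ligated array 1. In the 7 ligated arrays the neuronal mean lay between -0.20 and 0.33. Ligation differences of the receptors are given below with and without the 5 arrays whose neuronal or fat mean was above 1, which leaves 1 Has3-deficient and 2 wildtype non-ligated arrays; the lone array is then assumed to vary like the other groups.

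Promoter windows were listed for 8 of the 10 receptors, among them Ednra, which was not measured, but not Agtr1a or Adra1d. The 10 windows in all spanned 300 bases each (250 before and 50 after the RefSeq start site, GRCm38.p6). They were searched on both strands for 4 motifs: AP-1 (TGANTCA), the GC box (GGGCGG), the TEAD motif (GGAATG) and the CArG box of serum response factor. Of 32851 windows of the same length, 7.81% held the AP-1 motif, 35.7% the GC box, 14.7% the TEAD motif and 1.63% the CArG box; overlaps between motifs were not removed. The 5 receptors that passed after ligation in both genotypes are shown, 5′ to 3′ on the strand of the gene, with motif matches in capitals.
S1pr3, chr13:51408368-51408667, plus strand: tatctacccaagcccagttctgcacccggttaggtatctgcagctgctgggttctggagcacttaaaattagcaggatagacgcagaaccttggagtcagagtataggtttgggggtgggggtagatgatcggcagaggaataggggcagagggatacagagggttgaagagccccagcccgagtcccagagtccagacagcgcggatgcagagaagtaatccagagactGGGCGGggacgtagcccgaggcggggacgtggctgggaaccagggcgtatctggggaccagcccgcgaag
Ptgir, chr7:16906240-16906539, plus strand: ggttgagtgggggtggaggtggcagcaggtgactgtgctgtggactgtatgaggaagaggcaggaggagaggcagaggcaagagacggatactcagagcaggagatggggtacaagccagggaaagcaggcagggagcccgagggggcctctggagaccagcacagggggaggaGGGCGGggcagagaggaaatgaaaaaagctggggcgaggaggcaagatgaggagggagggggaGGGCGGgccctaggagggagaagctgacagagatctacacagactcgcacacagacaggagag
Htr2b, chr1:86111931-86112230, minus strand: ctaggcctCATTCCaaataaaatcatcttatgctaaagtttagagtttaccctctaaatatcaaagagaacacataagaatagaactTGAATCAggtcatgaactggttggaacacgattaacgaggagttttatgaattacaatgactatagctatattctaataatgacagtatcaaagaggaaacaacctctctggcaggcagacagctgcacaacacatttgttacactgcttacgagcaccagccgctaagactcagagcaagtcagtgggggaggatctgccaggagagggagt
Avpr1a, chr10:122448249-122448548, plus strand: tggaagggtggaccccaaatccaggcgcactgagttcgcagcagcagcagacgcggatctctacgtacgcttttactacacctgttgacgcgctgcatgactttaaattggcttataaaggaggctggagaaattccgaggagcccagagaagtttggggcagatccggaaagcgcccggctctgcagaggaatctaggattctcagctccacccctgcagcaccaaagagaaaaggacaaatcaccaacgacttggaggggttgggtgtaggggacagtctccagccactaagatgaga
Tbxa2r, chr10:81328018-81328317, plus strand: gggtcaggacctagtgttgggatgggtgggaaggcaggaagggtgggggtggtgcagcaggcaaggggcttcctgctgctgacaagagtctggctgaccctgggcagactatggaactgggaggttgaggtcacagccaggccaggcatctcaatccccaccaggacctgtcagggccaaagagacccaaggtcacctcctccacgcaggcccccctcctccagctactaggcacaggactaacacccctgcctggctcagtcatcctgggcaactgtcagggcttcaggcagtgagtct

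The S1pr3 window held 1 GC box and the Ptgir window 2. The Htr2b window held 1 match to the AP-1 pattern, TGAATCA, and 1 TEAD match. The AP-1 pattern searched allows any base in its middle, so that label is loose. The Avpr1a window and the Tbxa2r window shown held none of the 4 motifs. Tbxa2r had a second window, further downstream, with 1 GC box. No CArG box was found in any of the 10 windows. A match describes the letters of the window, and the lack of one says nothing about binding.

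After ligation the receptors did not move as a group. S1pr3, Ptgir, Htr2b and Avpr1a rose in both genotypes, Tbxa2r fell in both, Ednrb rose in Has3-deficient arteries and did not pass in wildtype arteries, and Agtr1a and Adra1b did not pass in either. The test was limma's moderated test of the 4 groups, with Benjamini-Hochberg adjustment over 22180 genes and a threshold of 0.05 on the adjusted p. In Has3-deficient arteries 5 of 8 receptors were higher and 1 lower, where 10.2% of all genes were higher and 8.08% lower. In wildtype arteries 4 of 8 were higher and 1 lower, against 13.2% and 14.6% of all genes. The median difference over the 8 receptors was 0.61 log2 units in Has3-deficient and 0.52 in wildtype arteries, and over all genes it was -0.030 and 0.0055.

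**Figure D1:**
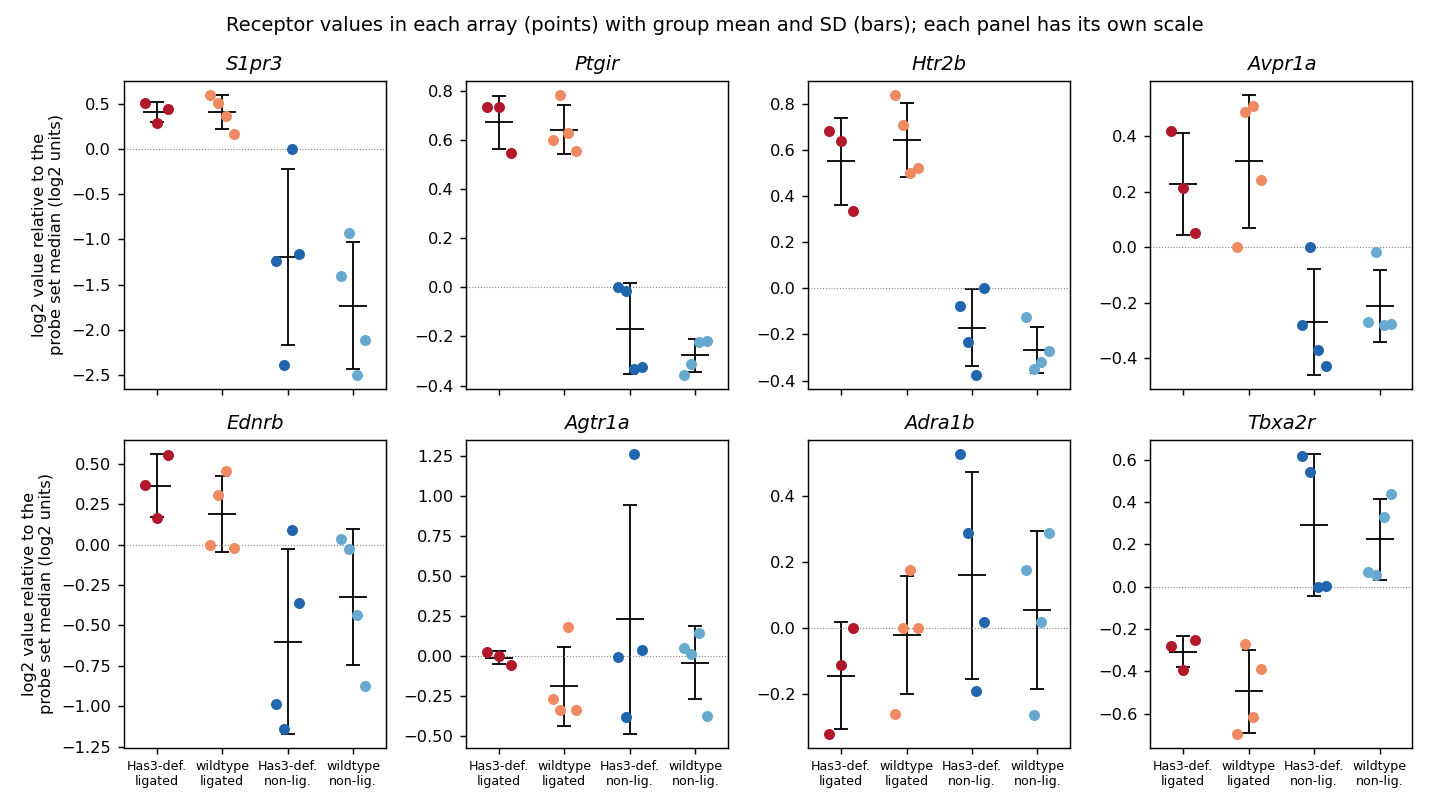
Log2 value of each receptor relative to its probe set median (y axis, log2 units) in each array (points), with the group mean and SD (bars), for Has3-deficient and wildtype ligated and then non-ligated arteries. Each panel has its own scale. Ligated and non-ligated arrays are apart for S1pr3, Ptgir, Htr2b and Tbxa2r, and mixed for Agtr1a and Adra1b.

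**Figure D2:**
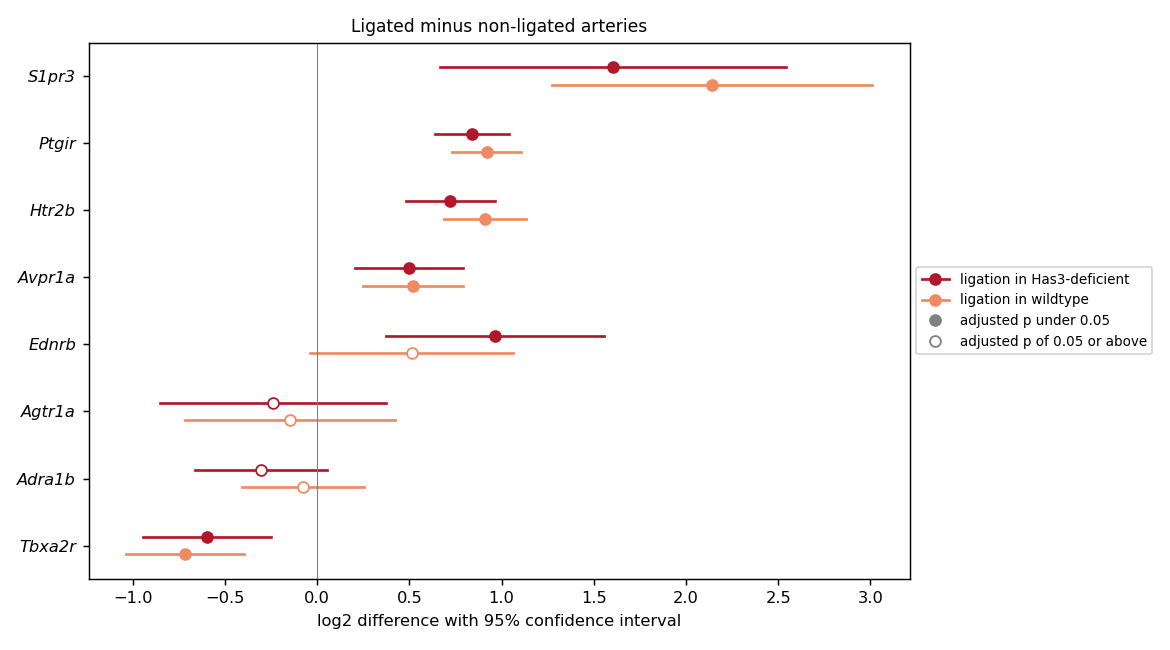
Log2 difference of ligated minus non-ligated arteries (x axis, log2 units) for each receptor in Has3-deficient and wildtype arteries, with 95% confidence intervals. Filled points passed an adjusted p of 0.05. S1pr3 has the largest difference of the 8 in both genotypes (1.60 and 2.14) and the widest intervals.

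Among the receptors for lipid mediators, S1pr3, a receptor for sphingosine 1-phosphate on smooth muscle and endothelium, showed the largest rise. In Has3-deficient mice it stood at 0.51, 0.28 and 0.44 log2 units in the ligated arrays, against -1.23, -2.38, 0 and -1.16 in the non-ligated arrays. In wildtype mice it stood at 0.60, 0.51, 0.36 and 0.17 in the ligated arrays, against -1.41, -0.93, -2.49 and -2.11 in the non-ligated arrays. The 7 ligated arrays lay within 0.43 log2 units of each other, whereas the 8 non-ligated arrays spanned 2.49, and the groups did not overlap in either genotype. The rise was 1.60 ± 0.44 log2 units in Has3-deficient arteries (3.04-fold, adjusted p = 0.0194 with limma) and 2.14 ± 0.40 in wildtype arteries (4.41-fold, adjusted p = 0.00102 with limma). The non-ligated arrays with the highest S1pr3 were Has3-deficient array 3 and wildtype array 2, which were also the highest of their genotype in neuronal markers. The lowest of each genotype had a negative neuronal mean. Wildtype non-ligated array 1, next below array 2 in S1pr3 (-1.41), also had a negative neuronal mean (-0.34). The part of nerve tissue in these values was not tested. Without the 5 arrays high in neuronal or fat markers the rise was 2.79 in Has3-deficient and 2.71 in wildtype arteries. The Has3-deficient value rests on 1 non-ligated array, number 2, which had the lowest S1pr3 of its group (-2.38). In Has3-deficient arteries the call was lost without ligated array 3 (1.56, adjusted p = 0.0709 with limma) or ligated array 6 (1.59, adjusted p = 0.0580 with limma). That call was also lost when only the groups compared were fitted (adjusted p = 0.0710 with limma). It was lost too with terms for the replicate numbers (1.57), a fit that rests on ligated array 3. The wildtype call held in all 24 alternatives. A long non-coding RNA gene, Gm32834, overlaps S1pr3 in the RefSeq gene table and has no value here.

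The prostanoid receptors Ptgir and Tbxa2r, which receive prostacyclin and thromboxane A2, moved in opposite directions. Ptgir stood at 0.73, 0.73 and 0.55 log2 units in Has3-deficient ligated arrays, against 0, -0.014, -0.33 and -0.33 in Has3-deficient non-ligated arrays. It stood at 0.60, 0.78, 0.63 and 0.56 in wildtype ligated arrays, against -0.36, -0.31, -0.22 and -0.22 in wildtype non-ligated arrays. All 7 ligated arrays lay at 0.55 or above, and all 8 non-ligated arrays at 0 or below. The rise was 0.84 ± 0.093 log2 units in Has3-deficient arteries (1.79-fold, adjusted p = 1.82e-05 with limma) and 0.92 ± 0.086 in wildtype arteries (1.89-fold, adjusted p = 2.51e-06 with limma). Both calls held in all 24 alternatives, and without the 5 arrays high in neuronal or fat markers the rise was 0.69 in Has3-deficient and 0.86 in wildtype arteries. The mean of the macrophage markers moved with it: it was 1.74 or above in every Has3-deficient ligated and -0.10 or below in every Has3-deficient non-ligated array, and it lay between 1.79 and 2.02 in wildtype ligated and between -0.54 and -0.13 in wildtype non-ligated arrays. The mean of 10 neutrophil markers moved with Ptgir as well. It lay between 1.84 and 2.36 in Has3-deficient ligated and between -0.99 and -0.26 in Has3-deficient non-ligated arrays. In wildtype arrays it lay between 1.62 and 2.53 when ligated and between -1.06 and -0.25 when non-ligated. The part of macrophages and neutrophils in the rise was not tested.

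Tbxa2r, the thromboxane receptor that contracts smooth muscle and activates platelets, was the only receptor of the 8 that fell. It stood at -0.28, -0.39 and -0.25 log2 units in Has3-deficient ligated arrays, against 0.62, 0.54, 0 and 0.0052 in Has3-deficient non-ligated arrays. It stood at -0.69, -0.27, -0.62 and -0.39 in wildtype ligated arrays, against 0.072, 0.054, 0.33 and 0.44 in wildtype non-ligated arrays. Every ligated array was at -0.25 or below and every non-ligated array at or above 0. The change was -0.60 ± 0.16 log2 units in Has3-deficient arteries (0.661-fold, adjusted p = 0.0182 with limma) and -0.72 ± 0.15 in wildtype arteries (0.608-fold, adjusted p = 0.00211 with limma). The smooth muscle marker mean moved with it: it lay between -0.52 and -0.34 in Has3-deficient ligated and between -0.01 and 0.50 in Has3-deficient non-ligated arrays, and between -0.85 and -0.33 in wildtype ligated and between 0.22 and 0.53 in wildtype non-ligated arrays. The part of these cells in the fall was not tested. The mean of 7 platelet markers lay between 0.19 and 0.46 in both ligated groups. It lay between -0.50 and 0.14 in Has3-deficient non-ligated and between -0.53 and 0.26 in wildtype non-ligated arrays. The median ligation difference of the 7 was only -0.084 log2 units in Has3-deficient and 0.14 in wildtype arteries, and the largest was 2.39 and 2.28. The part of platelets was not tested either. Without the 5 arrays high in neuronal or fat markers the change of Tbxa2r was -0.85 in Has3-deficient and -0.88 in wildtype arteries. The Has3-deficient value rests on 1 non-ligated array, number 2, which stood at 0.54. The wildtype call held in all 24 alternatives. The Has3-deficient call was lost without ligated array 3 (-0.61, adjusted p = 0.0533 with limma) or 5 (-0.56, adjusted p = 0.0720), and without non-ligated array 1 (-0.49, adjusted p = 0.0523) or 2 (-0.51, adjusted p = 0.0512). That call was also lost when only the groups compared were fitted (adjusted p = 0.0643 with limma). It was lost too with terms for the replicate numbers (-0.47), a fit that rests on ligated array 3.

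Of the receptors for amines, Htr2b rose and Adra1b did not pass. Htr2b is a serotonin receptor of smooth muscle, fibroblasts and macrophages. It stood at 0.68, 0.64 and 0.33 log2 units in Has3-deficient ligated arrays, against -0.079, -0.23, -0.37 and 0 in Has3-deficient non-ligated arrays. It stood at 0.84, 0.71, 0.50 and 0.52 in wildtype ligated arrays, against -0.13, -0.35, -0.32 and -0.27 in wildtype non-ligated arrays. The lowest ligated array, 0.33, was Has3-deficient array 6, and no non-ligated array was above 0. The rise was 0.72 ± 0.11 log2 units in Has3-deficient arteries (1.65-fold, adjusted p = 0.000374 with limma) and 0.91 ± 0.10 in wildtype arteries (1.88-fold, adjusted p = 1.42e-05 with limma), and both calls held in all 24 alternatives. The rise was 0.78 in Has3-deficient and 0.94 in wildtype arteries without the 5 arrays high in neuronal or fat markers. Htr2b overlaps Psmd1, a proteasome subunit gene, in the RefSeq gene table. Psmd1 itself differed by 0.092 ± 0.11 log2 units in Has3-deficient and 0.026 ± 0.10 in wildtype arteries and did not pass. The macrophage and neutrophil means given for Ptgir separated ligated from non-ligated arrays here too, and their part in the rise of Htr2b was not tested.

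Adra1b, an alpha-1 adrenergic receptor through which noradrenaline contracts vessels, overlapped between ligated and non-ligated arrays in both genotypes. It stood at -0.32, -0.11 and 0 log2 units in Has3-deficient ligated arrays, against 0.53, 0.29, -0.19 and 0.018 in Has3-deficient non-ligated arrays. It stood at -0.26, 0, 0.17 and 0 in wildtype ligated arrays, against 0.17, -0.26, 0.017 and 0.29 in wildtype non-ligated arrays. The difference was -0.30 log2 units in Has3-deficient arteries (95% interval -0.66 to 0.054, adjusted p = 0.255 with limma) and -0.075 in wildtype arteries (95% interval -0.41 to 0.26, adjusted p = 0.798 with limma). The Has3-deficient interval and the wildtype interval both include falls and rises, so a lack of change is not shown. Leaving out the 5 arrays high in neuronal or fat markers gave -0.43 in Has3-deficient arteries (adjusted p = 0.132 with limma) and -0.17 in wildtype arteries (adjusted p = 0.429 with limma).

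Of the receptors for peptides, Avpr1a rose in both genotypes. It is the vascular vasopressin receptor, which contracts smooth muscle. It stood at 0.42, 0.21 and 0.051 log2 units in Has3-deficient ligated arrays, against -0.28, 0, -0.37 and -0.43 in Has3-deficient non-ligated arrays. It stood at 0, 0.49, 0.51 and 0.24 in wildtype ligated arrays, against -0.27, -0.016, -0.28 and -0.28 in wildtype non-ligated arrays. Within each genotype the groups did not overlap, but their edges nearly touched in wildtype arteries: ligated array 1 stood at 0 and non-ligated array 2 at -0.016. Has3-deficient non-ligated array 2 also stood at 0, so over both genotypes ligated and non-ligated arrays met at 0. The rise was 0.50 ± 0.14 log2 units in Has3-deficient arteries (1.41-fold, adjusted p = 0.0196 with limma) and 0.52 ± 0.13 in wildtype arteries (1.43-fold, adjusted p = 0.00604 with limma). The wildtype call held in all 24 alternatives, and the rise was 0.59 without the 5 arrays high in neuronal or fat markers. In Has3-deficient arteries the difference was 0.23 without the 5 arrays high in neuronal or fat markers (adjusted p = 0.506 with limma), a fit with 1 Has3-deficient non-ligated array, and the call was also lost without ligated array 3 (0.40, adjusted p = 0.108) or 5 (0.50, adjusted p = 0.0547).

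Ednrb, the endothelin B receptor, relaxes vessels from the endothelium, clears endothelin and contracts from smooth muscle. It stood at 0.37, 0.17 and 0.56 log2 units in Has3-deficient ligated arrays, against -0.98, -1.14, 0.092 and -0.36 in Has3-deficient non-ligated arrays, with no overlap. In wildtype mice it stood at 0, 0.31, 0.46 and -0.019 in the ligated arrays, against 0.035, -0.024, -0.43 and -0.88 in the non-ligated arrays, and the groups overlapped. It rose by 0.96 ± 0.28 log2 units in Has3-deficient arteries (1.95-fold, adjusted p = 0.0254 with limma), and the difference in wildtype arteries was 0.51 ± 0.26 (adjusted p = 0.170 with limma). The 2 responses were not shown to differ (interaction 0.45 ± 0.38, adjusted p = 0.782 with limma). Without the 5 arrays high in neuronal or fat markers Ednrb passed in both genotypes, at 1.51 in Has3-deficient and 0.84 in wildtype arteries (adjusted p = 0.00203 and 0.00532 with limma). The Has3-deficient call was lost without ligated array 3 (0.96, adjusted p = 0.0776) or 6 (0.87, adjusted p = 0.0967), and without non-ligated array 1 (0.84, adjusted p = 0.0725) or 2 (0.78, adjusted p = 0.0681). That call was also lost when only the groups compared were fitted (adjusted p = 0.0748 with limma). It was lost too with terms for the replicate numbers (0.69), a fit that rests on ligated array 3. The non-ligated array with the highest Ednrb was Has3-deficient array 3, the highest in neuronal markers. Among wildtype non-ligated arrays it was array 1 (0.035), whose neuronal mean was -0.34, above array 2 (-0.024), whose neuronal mean was 2.23. The part of nerve tissue in these values was not tested. A long non-coding RNA gene, Gm35197, overlaps Ednrb in the RefSeq gene table and has no value here.

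Agtr1a, the main angiotensin II receptor of mouse vessels, did not pass in either genotype. It stood at 0.025, 0 and -0.058 log2 units in Has3-deficient ligated arrays, against -0.0063, -0.38, 1.26 and 0.040 in Has3-deficient non-ligated arrays. It stood at -0.27, -0.34, 0.18 and -0.34 in wildtype ligated arrays, against 0.051, 0.014, 0.14 and -0.38 in wildtype non-ligated arrays. The value of 1.26 in Has3-deficient non-ligated array 3 was the highest of the 15 arrays, and that array also had the highest neuronal mean, 4.11. The part of nerve tissue in that value was not tested. The difference was -0.24 log2 units in Has3-deficient arteries (95% interval -0.85 to 0.38) and -0.15 in wildtype arteries (95% interval -0.72 to 0.42). In Has3-deficient arteries it was 0.11 without that array and 0.37 without the 5 arrays high in neuronal or fat markers (adjusted p = 0.316 with limma), so its direction turned with 1 array. In wildtype arteries it was -0.073 without the 5 arrays.

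**Figure D3:**
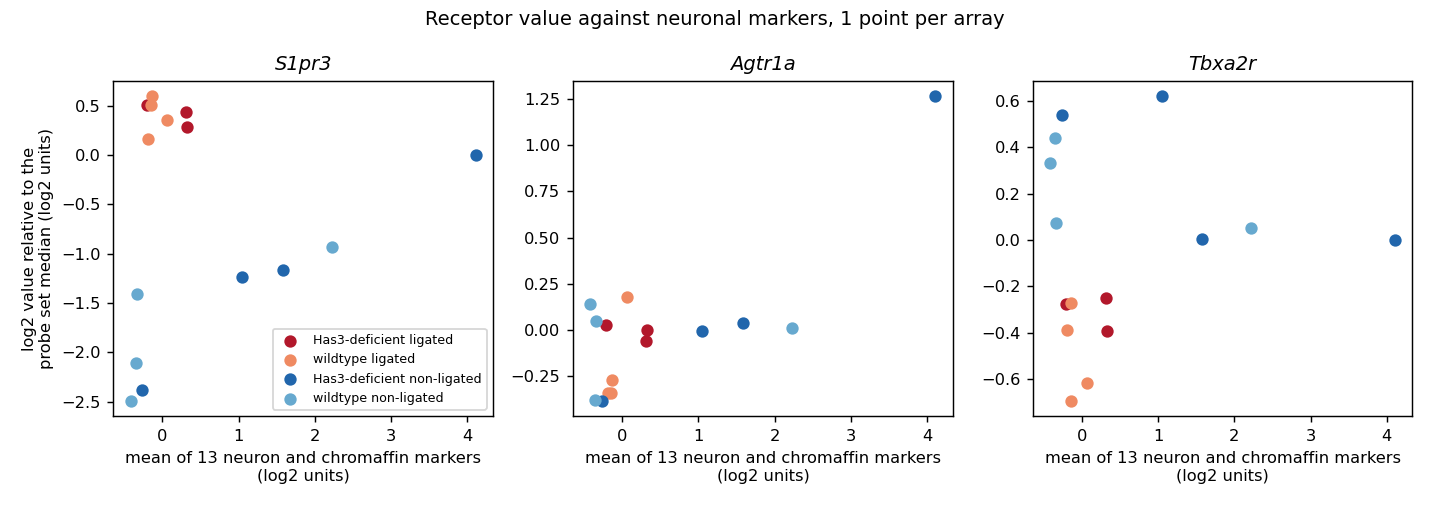
Log2 value of S1pr3, Agtr1a and Tbxa2r (y axes, log2 units relative to the probe set median) against the mean of 13 neuron and chromaffin markers (x axis, log2 units), 1 point per array, coloured by group. The ligated arrays sit at a neuronal mean between -0.20 and 0.33, and the non-ligated arrays reach 4.11, where Agtr1a is 1.26 and S1pr3 is 0.

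The genotypes were compared within each artery state, and the ligation responses of the genotypes were compared with each other. No receptor passed in any of these comparisons, and none had an unadjusted p under 0.05. Of all genes, 0% were higher and 0% lower by genotype in ligated arteries (0 genes passed with limma, 910 had an unadjusted p under 0.05, and array weights or fitting the groups compared alone called 1 gene). In non-ligated arteries 0.00902% were higher and 0.0766% lower. For the interaction, 0% were higher and 0% lower, and 1802 genes had an unadjusted p under 0.05. In ligated arteries S1pr3 averaged 0.41 ± 0.11 log2 units in Has3-deficient mice (SD, n = 3) and 0.41 ± 0.19 in wildtype mice (SD, n = 4), a difference of 0.0019 with a 95% interval of -0.94 to 0.94. Ptgir was measured more tightly: it averaged 0.67 ± 0.11 in Has3-deficient and 0.64 ± 0.10 in wildtype ligated arteries, with an interval of -0.17 to 0.23 for the difference. In non-ligated arteries S1pr3 averaged -1.20 ± 0.97 in Has3-deficient and -1.73 ± 0.70 in wildtype mice (SD, n = 4 each), and the difference of 0.54 ± 0.40 did not pass (adjusted p = 0.600 with limma). Without the arrays high in neuronal or fat markers that difference was -0.083. The widest gap between the ligation responses was that of S1pr3, -0.54 ± 0.60 log2 units (95% interval -1.82 to 0.74), followed by Ednrb, 0.45 ± 0.38 (95% interval -0.36 to 1.26). The narrowest intervals were those of Ptgir (-0.35 to 0.19) and Htr2b (-0.52 to 0.14). A p that misses the threshold does not show that the genotypes respond alike.

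**Figure D4:**
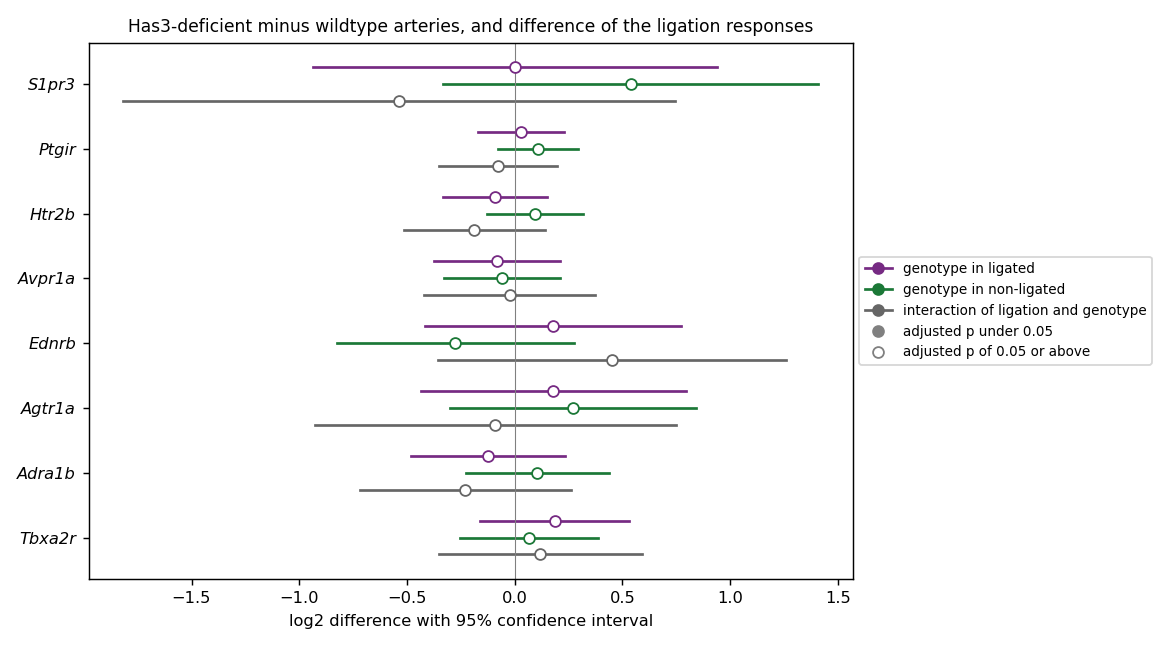
Log2 difference of Has3-deficient minus wildtype arteries in the ligated and the non-ligated state, and how far the 2 ligation responses differ (x axis, log2 units), with 95% confidence intervals, for each receptor. All points are open because none passed an adjusted p of 0.05, and every interval includes 0.

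Receptors that share a family of ligands with the 8 were read from a list of 24 measured genes. In Has3-deficient arteries 3 rose and 1 fell after ligation, 12.5% and 4.17% of the list, against 10.2% and 8.08% of all genes. In wildtype arteries 5 rose and 3 fell, 20.8% and 12.5% of the list, against 13.2% and 14.6% of all genes. The median difference was -0.024 log2 units in Has3-deficient and 0.029 in wildtype arteries. The prostaglandin E2 receptors were split. Ptger2 and Ptger4, which raise cyclic AMP, rose by 0.98 ± 0.12 and 0.72 ± 0.11 log2 units in Has3-deficient and by 1.09 ± 0.12 and 0.56 ± 0.10 in wildtype arteries. Ptger3, which lowers cyclic AMP, stood at -0.89 ± 0.52 in Has3-deficient arteries, which did not pass, and fell in wildtype arteries (-1.44 ± 0.48). Ptgfr, the contractile receptor for prostaglandin F, stood at -0.42 ± 0.17 in Has3-deficient arteries, which did not pass, and fell in wildtype arteries (-0.69 ± 0.16). Next to S1pr3, S1pr2, another sphingosine 1-phosphate receptor, rose by 0.95 ± 0.10 in Has3-deficient and 0.90 ± 0.10 in wildtype arteries. S1pr1, the main endothelial one, stood at 0.54 ± 0.19 in Has3-deficient arteries (adjusted p = 0.0629 with limma) and rose in wildtype arteries (0.53 ± 0.17). For Ptger3, Ptgfr and S1pr1 the responses of the genotypes were not shown to differ (interaction 0.55, 0.27 and 0.0093, adjusted p = 0.868, 0.797 and 0.995 with limma). Htr1b, a contractile serotonin receptor, fell to 0.499-fold in Has3-deficient and 0.471-fold of the non-ligated value in wildtype arteries, opposite to Htr2b. The Has3-deficient call of Htr1b was lost without ligated array 3 (-0.95, adjusted p = 0.0597 with limma). The wildtype call of Ptger3 was lost without wildtype ligated array 1 (-1.33), 2 (-1.34) or 3 (-1.51), wildtype non-ligated array 1 (-1.04) or 2 (-1.33), or Has3-deficient ligated array 5 (-1.44). That of S1pr1 was lost without wildtype ligated array 1 (0.55), 2 (0.44) or 3 (0.51) and also without wildtype non-ligated array 1 (0.44) or 4 (0.55).

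Enzymes and carriers that make, free or break down the ligands were read from a list of 28 measured genes, of which 5 rose and 2 fell in Has3-deficient and 8 rose and 3 fell in wildtype arteries (median -0.00081 and 0.11 log2 units). The rises were 17.9% of the list in Has3-deficient and 28.6% in wildtype arteries, against 10.2% and 13.2% of all genes. The falls, 7.14% and 10.7%, were no more frequent than the 8.08% and 14.6% of all genes that fell. Th and Dbh, which make noradrenaline, are in this list and in the neuronal one, and did not pass. Ptgs2, the inducible cyclooxygenase that opens prostanoid synthesis, rose by 2.30 ± 0.36 log2 units in Has3-deficient and 2.23 ± 0.33 in wildtype arteries. Tbxas1, thromboxane synthase, rose by 1.70 ± 0.12 and 1.54 ± 0.11. Ptgis, prostacyclin synthase, fell by 0.88 ± 0.24 and 0.97 ± 0.22. Synthase and receptor moved in opposite directions on both prostanoid branches: Tbxas1 rose where Tbxa2r fell, and Ptgis fell where Ptgir rose. Macrophage and neutrophil markers rose and contractile smooth muscle markers fell in the same arrays, and the part of these cells was not tested. In sphingosine 1-phosphate turnover, the lyase Sgpl1 rose by 1.37 ± 0.15 in Has3-deficient and 1.43 ± 0.13 in wildtype arteries, and the exporter Spns2 by 0.47 ± 0.15 and 0.82 ± 0.14. Ace, which makes angiotensin II, fell by 0.51 ± 0.14 in Has3-deficient and 0.63 ± 0.13 in wildtype arteries. Maob, a monoamine oxidase, stood at -0.73 ± 0.27 in Has3-deficient arteries, which did not pass, and fell in wildtype arteries (-1.36 ± 0.25). Its responses in the genotypes were not shown to differ (interaction 0.63, adjusted p = 0.684 with limma). Of these Has3-deficient calls, Ptgis was lost without ligated array 3 (-0.80) or 6 (-0.87) and also without non-ligated array 1 (-0.76) or 2 (-0.78). Ace was lost without ligated array 3 (-0.53), 5 (-0.47) or 6 (-0.52) and also without non-ligated array 1 (-0.41) or 2 (-0.41). Spns2 was lost without ligated array 3 (0.39) or 6 (0.48) and also without non-ligated array 1 (0.50) or 4 (0.38). Spns2 was also lost without the 5 arrays high in neuronal or fat markers (0.38).

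Other vasoactive receptors, 23 measured, held 6 that rose and 2 that fell in Has3-deficient arteries and 7 that rose and 4 that fell in wildtype arteries (median 0.16 and 0.17 log2 units). The rises were 26.1% of the list in Has3-deficient and 30.4% in wildtype arteries, against 10.2% and 13.2% of all genes, and the falls, 8.70% and 17.4% in the same order, were near the 8.08% and 14.6% of all genes that fell. Aplnr, the apelin receptor, rose by 2.32 ± 0.29 log2 units in Has3-deficient and 2.08 ± 0.27 in wildtype arteries. Cysltr1, a leukotriene receptor, rose by 1.83 ± 0.17 and 1.58 ± 0.16, and P2ry6, a receptor for UDP, by 1.35 ± 0.13 and 1.23 ± 0.12. Bdkrb1, the inducible bradykinin receptor, rose by 0.56 ± 0.16 and 0.73 ± 0.15. Npy1r, the contractile receptor for neuropeptide Y, fell by 1.28 ± 0.26 in Has3-deficient and 1.83 ± 0.24 in wildtype arteries. P2ry1, a receptor for ADP, Chrm3, a muscarinic receptor, and F2r, the thrombin receptor, stood at -0.33 ± 0.14, -0.40 ± 0.20 and -0.21 ± 0.16 in Has3-deficient arteries and did not pass. In wildtype arteries they fell by 0.54 ± 0.13, 0.54 ± 0.19 and 0.48 ± 0.15. The responses of the genotypes were not shown to differ (interaction 0.21, 0.14 and 0.27, adjusted p = 0.794, 0.917 and 0.770 with limma). The wildtype call of Chrm3 was lost without any of 9 arrays left out singly (-0.59 to -0.44). That of F2r was lost without wildtype ligated array 1 (-0.47) or 3 (-0.41) and also without wildtype non-ligated array 3 (-0.42) or 4 (-0.41). The Has3-deficient call of Bdkrb1 was lost without ligated array 3 (0.39), without non-ligated array 1 (0.53) and without the 5 arrays high in neuronal or fat markers (0.40).

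Downstream of the receptors, 45 genes of G proteins, their regulators and effectors were measured. Of these 8 rose and 18 fell in Has3-deficient arteries, and 10 rose and 20 fell in wildtype arteries (median -0.35 and -0.18 log2 units). In Has3-deficient arteries the rises were 17.8% and the falls 40% of the list, against 10.2% and 8.08% of all genes. In wildtype arteries they were 22.2% and 44.4%, against 13.2% and 14.6% of all genes. Ppp1r14a, the inhibitor of myosin phosphatase that sustains contraction, fell by 1.14 ± 0.21 log2 units in Has3-deficient and 1.78 ± 0.20 in wildtype arteries. Prkg1, the cyclic GMP kinase of relaxation, fell by 0.88 ± 0.19 and 1.28 ± 0.18, Adcy5, an adenylyl cyclase, by 1.26 ± 0.27 and 1.41 ± 0.25, and Plcb4, a phospholipase C of the Gq pathway, by 0.96 ± 0.17 and 1.37 ± 0.16. Plcb2, the phospholipase C of blood cells, rose by 1.70 ± 0.12 in Has3-deficient and 1.91 ± 0.11 in wildtype arteries. Rgs1 and Rgs16, which shut off G proteins, rose by 2.12 ± 0.17 and 1.37 ± 0.15 in Has3-deficient and by 2.25 ± 0.16 and 1.54 ± 0.14 in wildtype arteries. Arrb2, a beta-arrestin that desensitises receptors, rose by 1.46 ± 0.12 and 1.70 ± 0.11. These calls held in all 24 alternatives, except that the Has3-deficient calls of Adcy5 and Prkg1 were each lost in 1. Markers of contractile smooth muscle fell and those of macrophages and neutrophils rose in the same arrays. The part of these cells in the changes was not tested.

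**Figure D5:**
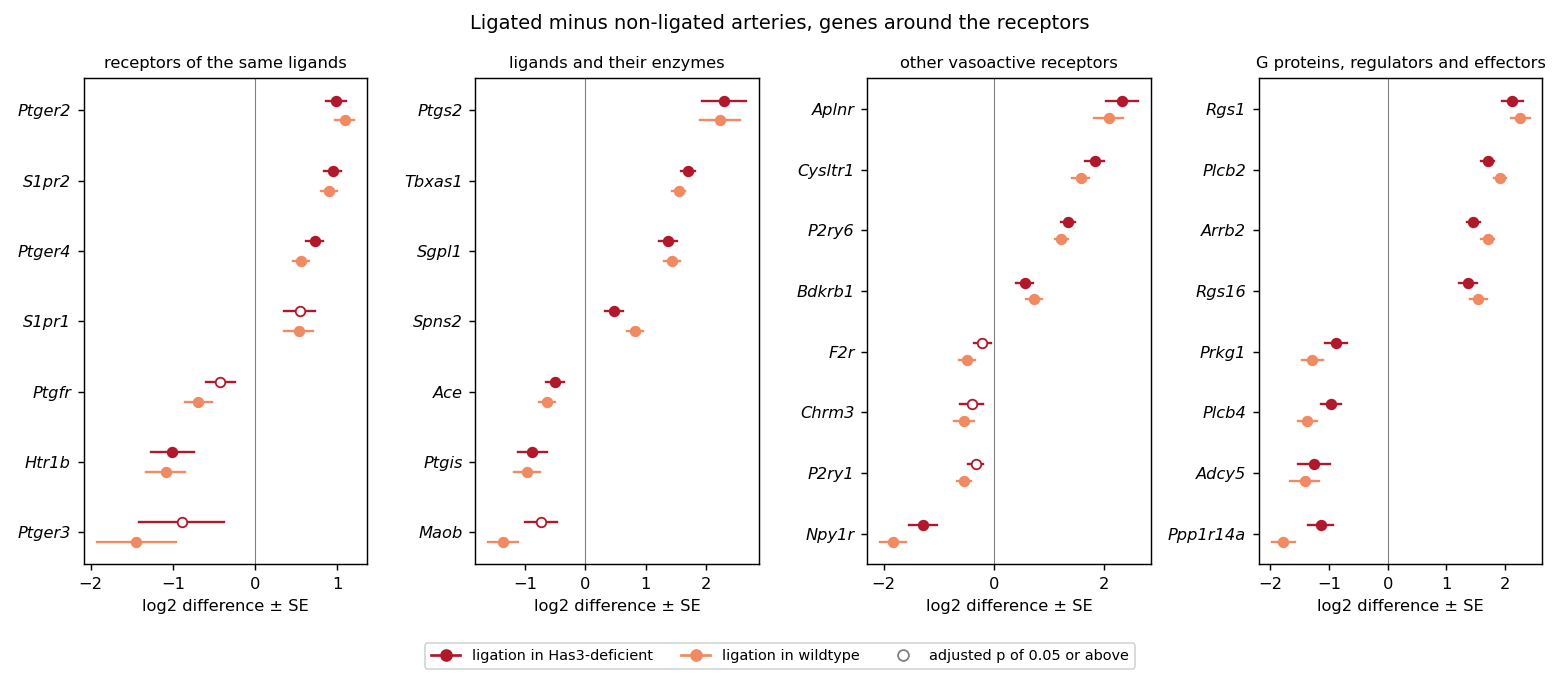
Log2 difference of ligated minus non-ligated arteries ± SE (x axes, log2 units) for the genes named from each of the 4 lists, in Has3-deficient and wildtype arteries. Open points did not pass an adjusted p of 0.05. Ptgs2, Aplnr and Rgs1 show the largest rises of their lists in wildtype arteries, and Npy1r and Ppp1r14a the largest falls of theirs.

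Likeness between genes was measured as Pearson's r over the 15 arrays, which fall into ligated and non-ligated groups and share that split, so the values describe these arrays. The 3 genes with the highest r are given for each receptor, and nothing about function follows from them. Htr2b was most like Aldh3b1, Cebpb and Rnpep (r = 0.99, 0.98 and 0.98), and Ptgir most like Ckap4, Tgfb1 and Aif1 (r = 0.98 each). S1pr3 was most like Mest, Pitpnc1 and Tmem176b (r = 0.98, 0.96 and 0.96). Tbxa2r was most like Zdhhc1, Kank2 and Mtus2 (r = 0.98, 0.98 and 0.97). Avpr1a was most like Il10, Elk3 and Wdr26 (r = 0.92, 0.92 and 0.91), and Ednrb most like Caprin1, Gca and Car13 (r = 0.92, 0.91 and 0.90). Agtr1a was most like Amer3, Rtn4rl1 and Spink10 (r = 0.92, 0.91 and 0.91), and Adra1b most like Wfdc3, Prss52 and Ormdl3 (r = 0.88, 0.82 and 0.79). Among the receptors themselves, Ptgir and Htr2b had r = 0.94. As deviations from the group means, which take out ligation and genotype, that pair had r = 0.26. Within groups the closest pairs were Agtr1a with Ednrb, Ednrb with S1pr3 and Tbxa2r with Ptgir (r = 0.78 each), and the most opposed pair was Ednrb with Tbxa2r (r = -0.73). The neuron-rich non-ligated arrays are among the points behind these values.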

How the data were processed

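Total RNA of 15 carotid arteries was labelled with biotin by an Affymetrix kit, per the labels' protocols, and read on arrays. The authors deposited a table of log2 values of 33793 probe sets, each relative to the probe set's median over the arrays. That the base is 2 was inferred from the spread of the values; normalization between arrays, software and genome build were not given in the sources used. Probe sets were named from the platform annotation: 23521 had 1 symbol, 1814 several and 8458 none listed. Probe sets of a gene were averaged, giving 22180 genes, and no filter on dim genes was possible. The groups were fitted in 1 model with limma 3.58.1 in R 4.3.3 (empirical Bayes, 11 residual and 2.69 prior degrees of freedom), with no replicate block. A gene was called at a Benjamini-Hochberg adjusted p under 0.05. In simulated data for ligation in wildtype arteries over 22180 genes with 200 changed, 67% of changes of 0.5 and 97% of 1 log2 unit were recovered, and 4.65% of calls were false. The noise was drawn independently for each gene, and far more genes passed in the real comparison. Several real arrays also shared neuronal or fat signal, so these rates need not hold for the data. Has3-deficient arteries were not simulated. The members, lists and tests were chosen with earlier results of these data known. Named were all receptors, Has3, defining markers, up to 4 passing genes per list and direction with the largest change, and the 3 genes most like each receptor (no predicted genes). Alternatives tried were array weights, quantile normalization, a common median, fitting the groups compared alone, a robust prior, the probe set with the largest variance, probe sets tested separately, a replicate block, and fits without arrays high in neuronal or fat markers or without each array in turn. Ligation in the 2 genotypes shares no array, and the genotype comparisons and the interaction share arrays with both.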

Additional observations from a re-analysis of the deposited data

Results flagged for a closer look

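Of 24 groups of 4 arrays in which the array farthest from the others was examined, 2 held an array whose gap to its nearest neighbour was large for the range of its group, and chance alone gives such a gap in about 1 in 20 groups. Agtr1a in wildtype ligated array 3 was 0.18 log2 units, above the other 3 arrays of its group, which lay between -0.34 and -0.27. Avpr1a in wildtype non-ligated array 2 was -0.016, above the other 3 arrays, which lay between -0.28 and -0.27. Array 2 had the highest neuronal mean of its group, 2.23, and the part of nerve tissue in that value was not tested.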

How the results depend on the processing

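Across 24 alternatives the wildtype ligation calls of S1pr3, Ptgir, Htr2b, Avpr1a and Tbxa2r and the Has3-deficient ligation calls of Ptgir and Htr2b held in every one, and no receptor passed in a genotype comparison or the interaction under any. In Has3-deficient arteries the call held in 21 alternatives for Avpr1a, 20 for S1pr3 and 18 each for Ednrb and Tbxa2r. Those of S1pr3, Ednrb and Tbxa2r were lost both when only the groups compared were fitted and with the replicate block. Not all 24 could move a call much. Each receptor has 1 probe set, so the alternatives on probe sets used the same values for it. Leaving out an array of the other genotype changes only the spread behind a ligation difference. The number of receptors higher after ligation in Has3-deficient arteries was 3 when only the groups compared were fitted, 3 with the replicate block, and 2 to 5 with 1 array left out, against 5 as reported. The number lower was 0 in both of those fits and 0 to 1 with 1 array left out, against 1 as reported. The labels do not state whether shared replicate numbers pair the arrays, and 3 or 4 arrays a group cannot decide it. Same-numbered wildtype ligated and non-ligated arrays had correlations of 0.028 to 0.16 in their deviations, and the Has3-deficient states share 1 number only (-0.058). Numbers 5 and 6 each occur on 1 array only, a Has3-deficient ligated one, and the block's term for that number takes it up. With the replicate block the Has3-deficient ligated group therefore rests on array 3. Its values for ligation in Has3-deficient arteries, for genotype in ligated arteries and for the interaction cannot show an effect of pairing. Among the pathway genes named, the block ended the Has3-deficient calls of Adcy5 (-1.12), Prkg1 (-1.10), Htr1b (-0.97), Ptgis (-0.68), Ace (-0.41) and Spns2 (0.51). The block also ended the wildtype calls of Chrm3 (-0.54), F2r (-0.48), Ptger3 (-1.44) and S1pr1 (0.53). Ptgis and Ace were also lost in Has3-deficient arteries when only the groups compared were fitted (-0.88 and -0.51), and Chrm3 in wildtype arteries with quantile normalization (-0.69). Sign changes occurred only in differences that did not pass. With the replicate block the genotype difference in ligated arteries was -0.31 for Agtr1a, -0.10 for Ednrb, 0.10 for Avpr1a, 0.17 for Htr2b and -0.030 for S1pr3, and the interaction was 0.16 for Avpr1a, 0.024 for Ptgir and 0.074 for Htr2b. Array weights gave -0.012 for S1pr3 by genotype in ligated arteries and 0.10 for the Agtr1a interaction, and quantile normalization gave interactions of 0.017 for Avpr1a and -0.10 for Tbxa2r. Without the 5 arrays high in neuronal or fat markers, Agtr1a was 0.37 for ligation in Has3-deficient arteries, -0.27 by genotype in non-ligated arteries and 0.45 for the interaction, Avpr1a was 0.28 by genotype in non-ligated arteries, and S1pr3 was -0.083 by genotype in non-ligated arteries and 0.085 for the interaction. With 1 array left out the ranges that cross 0 were -0.18 to 0.0044 for Adra1b under ligation in wildtype and -0.44 to 0.11 for Agtr1a under ligation in Has3-deficient arteries. By genotype in ligated arteries they were -0.18 to 0.0073 for Avpr1a, -0.0014 to 0.092 for Ptgir, -0.16 to 0.016 for Htr2b and -0.078 to 0.065 for S1pr3. By genotype in non-ligated arteries they were -0.074 to 0.48 for Agtr1a, -0.017 to 0.22 for Adra1b, -0.15 to 0.0064 for Avpr1a and -0.042 to 0.16 for Tbxa2r, and for the interaction -0.30 to 0.25 for Agtr1a and -0.13 to 0.067 for Avpr1a. The count of genes passing by genotype in non-ligated arteries, 19 as reported, was between 0 and 280 over the alternatives. The causes of these shifts were not tested. The number of arrays, 3 or 4 a group, limits the precision, and centring left no levels from which signal over background could be judged.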
